A study of Elodea nuttallii and Chlamydomonas reinhardtii with 18 samples.

Results

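Plants make cysteine from sulfate, and 11 transcripts of the waterweed Elodea nuttallii were assigned to this route by a search of the annotations in the authors' deposited tables. The search looked for ATP sulfurylase, sulfate adenylyltransferase, sulfate transporter, sulfite reductase, adenylylsulfate reductase, cysteine synthase and serine acetyltransferase. It found 9 transcripts of 6 assembled loci through their descriptions and 2 further transcripts through a gene ontology term alone, among 4728 described transcripts and 58110 transcripts in all. Descriptions stand only in the authors' tables, which list 11717 transcripts that the authors called changed between sites. The 11 were thus chosen by the authors' fold changes and FDR between sites in these same libraries, and the values below are a description that no test of theirs can support. No transcript was described as a sulfite reductase, and no description named cysteine synthase, so these steps are not analysed here.

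Sulfate enters plant cells through proton-coupled transporters, and ATP sulfurylase activates it to adenylylsulfate. Adenylylsulfate reductase, an enzyme of plastids that is widely regarded as a control point of the route, reduces adenylylsulfate to sulfite, which sulfite reductase turns into sulfide. Serine acetyltransferase supplies the O-acetylserine that cysteine synthase joins with sulfide to give cysteine. Cysteine in turn feeds protein synthesis, methionine, iron-sulfur clusters, and glutathione, from which plants build the metal-binding phytochelatins.

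All groups were shoots of Elodea nuttallii, the top 10 cm with the apex, which had been collected at a clean site and then kept for 2 h in the River Olt. They were exposed at Babeni site 2, at Babeni site 1 or at Valcea, with 3 libraries per site. The title of the series names in situ mercury toxicity as its subject, and mercury levels at the sites are not given in the sources used here. The labels of the study's algal samples, not analysed here, call Valcea the control, and it serves as the site of comparison. The libraries were made with a stranded mRNA kit from 300 ng of total RNA. Nothing in the labels tells if replicates were different plants, so errors and adjusted p measure the spread between libraries, which may be technical.

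The libraries of Babeni site 2 held 6932366 to 7824727 reads, those of Babeni site 1 held 4578385 to 4985937 and those of Valcea 2875062 to 4875382. Values are CPM as the authors scaled them, and 3 reads amounted to 0.351 to 0.433 CPM at Babeni site 2, 0.572 to 0.645 CPM in Babeni site 1 libraries and 0.564 to 1.19 CPM at Valcea. Valcea replicate 3 stood apart from its group, with a chi-square per transcript of 9.12 and 9.04 against the other Valcea replicates, where pairs of other libraries of a site gave 2.00 to 4.62. The transcripts of the route were also fitted without it, and calls of theirs that changed are named below. For other named transcripts no call without it is given. Shoot markers were present: 29 described transcripts of chlorophyll a-b binding proteins summed to 1298 to 1439 CPM at Babeni site 2, 2660 to 3030 CPM in Babeni site 1 libraries and 1451 to 1994 at Valcea. Summed over 32 described transcripts, photosystem subunits gave 2070 to 2845 CPM at Babeni site 2, 3842 to 4063 CPM in Babeni site 1 libraries and 8383 to 11488 at Valcea, and their part in the results below was not tested. No description named the Casparian strip of roots, bacteria or diatoms. Only transcripts that the authors called changed carry descriptions, so this cannot show that such RNA was absent.

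Differences are given as mean log2(CPM + 0.5) of the first site minus that of the second, ± standard error (SE), a scale that understates the change of scarce transcripts. A transcript was said to rise or fall where limma gave a Benjamini-Hochberg adjusted p under 0.05 over all 56752 tested transcripts and the difference was at least 2-fold. By this rule 5 of the 11 transcripts fell at Babeni site 2 against Valcea, beside 6.09% of all tested transcripts and 32.1% of the described ones. At Babeni site 1 against Valcea 5 of the 11 fell as well, beside 4.9% of all and 24.8% of the described ones. None rose by limma in either comparison, beside 6.0% of all tested transcripts at Babeni site 2 and 4.17% at Babeni site 1, while edgeR on recovered reads called 1 rise in each and DESeq2 none. At an unadjusted p under 0.05, 8 of the 11 passed at Babeni site 2, beside 32.4% of all and 85.7% of described tested transcripts, and 9 passed at Babeni site 1, beside 30.1% of all and 77.8% of described ones. Both comparisons share the 3 Valcea libraries. Since the authors' calls in the same contrasts chose the transcripts, nothing is read from these counts.

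The plot of values by library gives every transcript in turn, in the order of the pathway.

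**Figure D1:**
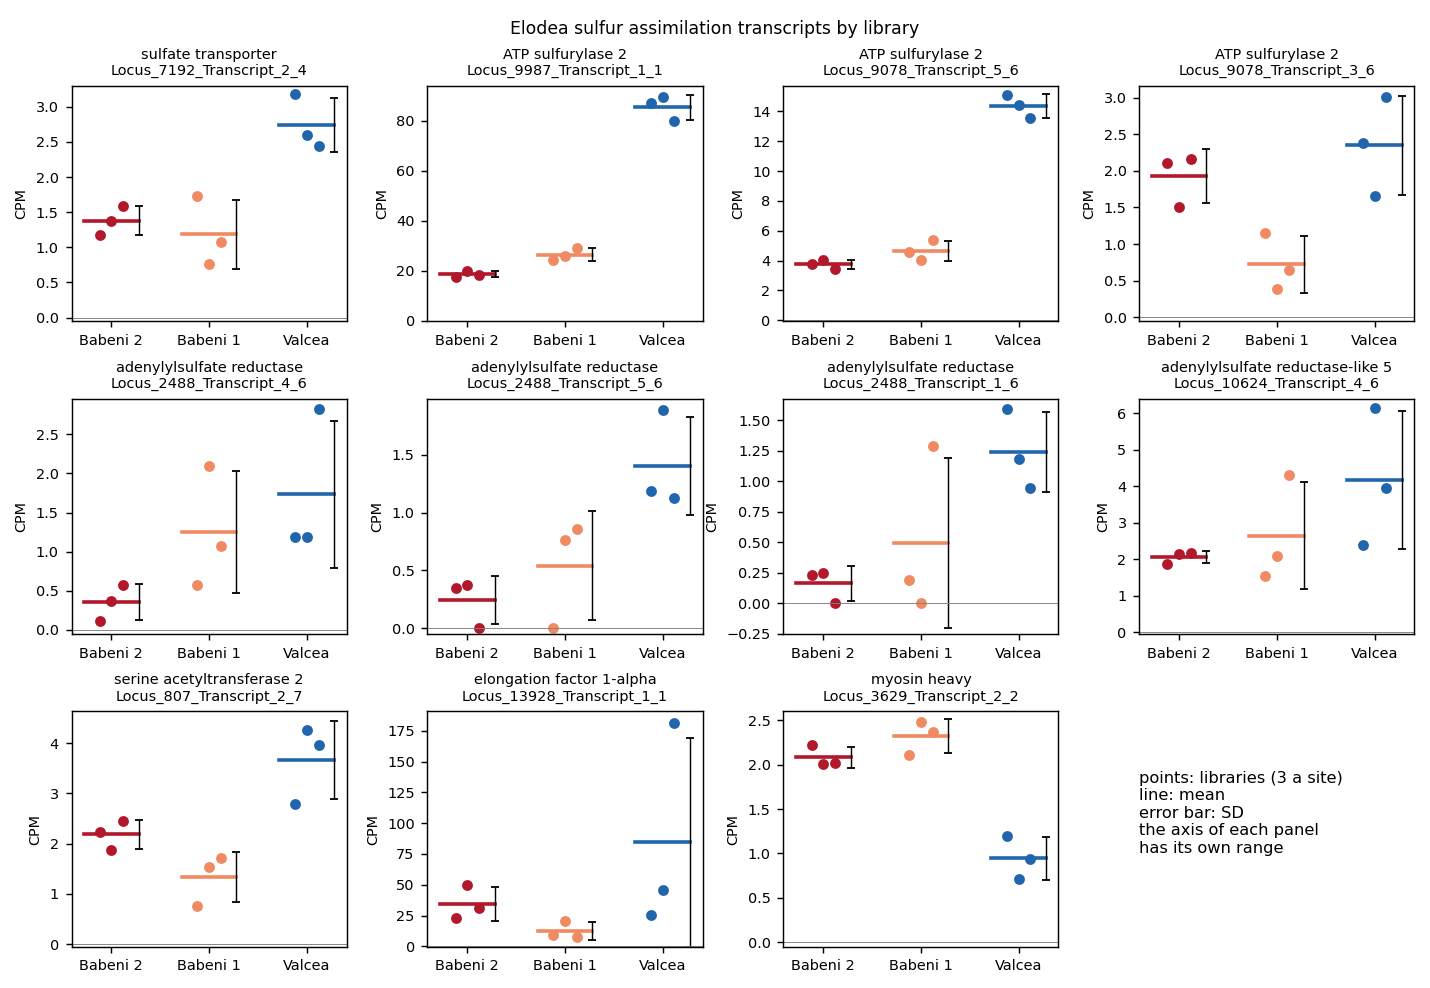
CPM of the 11 transcripts in each library, with 1 panel per transcript and its own vertical range; points are the 3 libraries of a site, lines are means and error bars are SD. The ATP sulfurylase panels of Locus_9987 and of Locus_9078 transcript 5 show a wide gap between Babeni and Valcea libraries, and the elongation factor panel shows 1 Valcea library far above the other two.

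At the entry of the route, a transcript described as a probable sulfate transporter, Locus_7192_Transcript_2_4_, was scarce at all sites. It had 1.17, 1.38 and 1.59 CPM at Babeni site 2, 1.72, 0.763 and 1.07 CPM in Babeni site 1 libraries, and 3.18, 2.60 and 2.45 CPM at Valcea. All 6 Babeni libraries lay below all Valcea libraries, and the Babeni sites overlapped. The difference was -0.79 ± 0.31 at Babeni site 2 against Valcea, -0.98 ± 0.31 at Babeni site 1 against Valcea and 0.19 ± 0.31 between Babeni site 2 and Babeni site 1, and none passed. The Babeni site 1 difference passed in 4 of 19 alternatives, among them the one without Valcea replicate 3, where it was -1.04. Its locus held 1 other transcript with values, and the sum of both averaged 2.68 ± 0.498 CPM at Babeni site 2, 2.96 ± 0.927 at Babeni site 1 and 5.38 ± 0.424 at Valcea (SD, n = 3 each).

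ATP sulfurylase, which activates sulfate, was represented by 3 transcripts of 2 loci, all described as ATP sulfurylase 2. Locus_9987_Transcript_1_1_, the only transcript of its locus, was the most abundant of the 9 transcripts found by description. It had 17.5, 19.9 and 18.3 CPM at Babeni site 2, 24.3, 26.0 and 29.2 CPM in Babeni site 1 libraries, and 87.0, 89.2 and 79.8 CPM at Valcea. The 3 sites did not overlap, with Babeni site 2 lowest and Valcea highest. The means were 18.6 ± 1.20 CPM at Babeni site 2, 26.5 ± 2.50 CPM at Babeni site 1 and 85.3 ± 4.93 CPM at Valcea (SD, n = 3 each), from 436, 399 and 1020 reads in the same order of sites. The transcript fell at Babeni site 2 against Valcea, with a log2 difference of -2.17 ± 0.13, and at Babeni site 1 against Valcea, with -1.67 ± 0.13. Both calls held in all 20 alternative analyses, the one without Valcea replicate 3 included. Between Babeni site 2 and Babeni site 1 the difference was -0.50 ± 0.13 and did not reach 2-fold. In bulk tissue, fewer cells of a type and less RNA per cell cannot be told apart, here and in all values below.

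The other ATP sulfurylase locus held 4 transcripts with values, of which 2 were described. Its main one at Valcea, Locus_9078_Transcript_5_6_, had 3.74, 4.01 and 3.46 CPM at Babeni site 2, 4.60, 4.01 and 5.37 CPM in Babeni site 1 libraries, and 15.1, 14.4 and 13.5 CPM at Valcea. All Babeni libraries lay far below all Valcea libraries, while the ranges of the Babeni sites met at about the same value. It fell at Babeni site 2 against Valcea, by a log2 difference of -1.81 ± 0.19, and at Babeni site 1 against Valcea, by -1.53 ± 0.19. These calls also held in all 20 alternatives.

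The second described transcript of that locus did not follow the first. Locus_9078_Transcript_3_6_ had 2.11, 1.50 and 2.17 CPM at Babeni site 2, 1.15, 0.382 and 0.645 CPM in Babeni site 1 libraries, and 2.38, 1.66 and 3.01 CPM at Valcea. Babeni site 1 lay below both other sites, while Babeni site 2 overlapped Valcea. It fell at Babeni site 1 against Valcea, with a difference of -1.24 ± 0.33 from 11 reads at Babeni site 1 and 29 at Valcea. That call was lost without Valcea replicate 3, without Babeni site 1 replicate 2 or 3, with a pseudocount of 2, and with DESeq2. At Babeni site 2 against Valcea the difference was -0.22 ± 0.33.

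Transcripts of a locus share sequence, so how reads were split among them is uncertain. A locus sum here is over the transcripts with values and does not depend on how reads were split among those. Reads given to a transcript without values are not in it. Locus_9078 and Locus_2488 each number 6 transcripts, of which 4 and 3 had values. Values exist for 3 of 6 in Locus_10624, 5 of 7 in Locus_807 and 2 of 4 in Locus_7192. For Locus_9078 the sum averaged 10.96 ± 1.30 CPM at Babeni site 2, 8.91 ± 1.63 CPM at Babeni site 1 and 22.8 ± 0.927 CPM at Valcea (SD, n = 3 each). The sum was lower in all 6 Babeni libraries than in any Valcea library, with a log2 difference of -1.03 ± 0.17 at Babeni site 2 and -1.32 ± 0.17 at Babeni site 1 against Valcea, both passing over all locus sums. Its makeup also differed: transcript 5 made up 34.6% ± 5.76 of the locus at Babeni site 2, 52.6% ± 4.40 at Babeni site 1 and 63.1% ± 1.95 at Valcea. Transcript 3 made up 17.6% ± 3.45 at Babeni site 2, 7.93% ± 3.56 at Babeni site 1 and 10.3% ± 3.07 at Valcea. The shares were not tested.

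Adenylylsulfate reductase, the step after ATP sulfurylase, was represented by 3 transcripts of Locus_2488, all described as chloroplastic-like, and each was scarce. Locus_2488_Transcript_4_6_ had 0.117, 0.376 and 0.577 CPM at Babeni site 2 (1, 3 and 4 reads), 0.574, 2.10 and 1.07 CPM in Babeni site 1 libraries (3, 11 and 5 reads), and 1.19, 1.18 and 2.82 CPM at Valcea (3, 5 and 15 reads). Babeni site 2 lay below Valcea, and Babeni site 1 overlapped it. Locus_2488_Transcript_5_6_ had 3, 3 and 0 reads at Babeni site 2, 0, 4 and 4 reads in Babeni site 1 libraries, and 3, 8 and 6 reads at Valcea. Locus_2488_Transcript_1_6_ had 2, 2 and 0 reads at Babeni site 2, 1, 0 and 6 reads in Babeni site 1 libraries, and 4, 5 and 5 reads at Valcea. Summed over its libraries, Babeni site 2 had 4 reads of this last transcript, Babeni site 1 had 7 and Valcea 14, and a value of 0 to 3 reads lies at the limit of detection.

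All 3 fell at Babeni site 2 against Valcea, with log2 differences of -1.34 ± 0.41 for transcript 4, -1.38 ± 0.44 for transcript 5 and -1.40 ± 0.46 for transcript 1. At Babeni site 1 against Valcea the differences were -0.37 ± 0.41 for transcript 4, -0.98 ± 0.44 for transcript 5 and -1.01 ± 0.46 for transcript 1, and none passed. The calls at Babeni site 2 were less stable than those of ATP sulfurylase. They held in 15 of 19 alternatives for transcript 4, in 11 of 19 for transcript 5 and in 9 of 18 for transcript 1. Without Valcea replicate 3 the difference of transcript 4 was -1.01 and did not pass. None of the 3 reached 1 CPM in any Babeni site 2 library. Transcript 5 reached the minimum of 1 CPM in 3 libraries through Valcea alone. Transcript 4 did so through 3 Valcea libraries and 2 of Babeni site 1, and transcript 1 through 2 Valcea libraries and 1 of Babeni site 1. Without Valcea, where each was highest, none would have been tested, so their falls at Babeni site 2 carry that choice.

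The locus sum is better covered. The libraries had 0.702, 1.00 and 0.577 CPM at Babeni site 2, 0.766, 2.86 and 3.22 CPM in Babeni site 1 libraries, and 3.97, 4.26 and 4.89 CPM at Valcea. Valcea libraries lay above all others, and at Babeni site 1 replicate 1 lay near Babeni site 2 while replicates 2 and 3 lay near Valcea. The mean was 0.760 ± 0.218 CPM at Babeni site 2 from 18 reads, 2.28 ± 1.33 CPM at Babeni site 1 from 34 reads, and 4.37 ± 0.471 CPM at Valcea from 54 reads (SD, n = 3 each). The sum fell at Babeni site 2 against Valcea, with -1.96 ± 0.38, and it missed the threshold at Babeni site 1 against Valcea, with -0.95 ± 0.38, or between Babeni site 2 and Babeni site 1, with -1.01 ± 0.38.

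A transcript described as adenylylsulfate reductase-like 5, Locus_10624_Transcript_4_6_, had 1.87, 2.13 and 2.17 CPM at Babeni site 2, 1.53, 2.10 and 4.30 CPM in Babeni site 1 libraries, and 2.38, 6.15 and 3.95 CPM at Valcea. In Arabidopsis, proteins of this reductase-like name are thioredoxin-fold proteins set apart from the reductases that act on adenylylsulfate. Babeni site 2 lay below Valcea by a narrow margin, and Babeni site 1 overlapped both. The differences of -0.79 ± 0.35 at Babeni site 2 and -0.58 ± 0.35 at Babeni site 1 against Valcea did not pass. With each library left out in turn, the difference lay between -1.09 and -0.49 at Babeni site 2, passing only without Valcea replicate 1, and between -0.94 and -0.29 at Babeni site 1. The values nearest 0 were those without Valcea replicate 2. The locus sum averaged 10.0 ± 0.701 CPM at Babeni site 2, 9.09 ± 2.21 CPM at Babeni site 1 and 15.4 ± 2.81 CPM at Valcea (SD, n = 3 each). All Babeni libraries had lower sums than all Valcea libraries. The sum differed by -0.58 ± 0.20 at Babeni site 2 and -0.74 ± 0.20 at Babeni site 1 against Valcea, neither passing.

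Serine acetyltransferase makes the carbon backbone of cysteine. The described transcript, Locus_807_Transcript_2_7_, had 2.22, 1.88 and 2.45 CPM at Babeni site 2, 0.766, 1.53 and 1.72 CPM in Babeni site 1 libraries, and 2.78, 4.26 and 3.95 CPM at Valcea. The sites did not overlap, and here Babeni site 1 was lowest. It fell at Babeni site 1 against Valcea, with -1.20 ± 0.30, a call lost without Babeni site 1 replicate 1, with a pseudocount of 2 and with DESeq2. At Babeni site 2 against Valcea the difference was -0.62 ± 0.30 and did not pass.

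That transcript was a small part of its locus: 3.40% ± 0.570 of the reads at Babeni site 2, 2.64% ± 1.21 at Babeni site 1 and 4.08% ± 1.04 at Valcea. Another transcript of the locus with no description, Locus_807_Transcript_6_7_, averaged 36.8 CPM at Babeni site 2, 29.6 CPM at Babeni site 1 and 51.9 CPM at Valcea. Summed over all 5 transcripts with values, Locus_807 averaged 64.6 ± 2.39 CPM at Babeni site 2, 53.1 ± 8.43 CPM at Babeni site 1 and 90.9 ± 9.94 CPM at Valcea (SD, n = 3 each). All Babeni libraries had lower sums than all Valcea libraries, and the difference was -0.48 ± 0.13 at Babeni site 2 and -0.78 ± 0.13 at Babeni site 1 against Valcea, neither reaching 2-fold.

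The 2 transcripts found through ontology terms alone carry descriptions of other proteins. Locus_13928_Transcript_1_1_, annotated with sulfate adenylyltransferase activity, is described as elongation factor 1-alpha, which brings aminoacyl-tRNA to the ribosome. It had 23.0, 50.1 and 30.8 CPM at Babeni site 2, 9.00, 20.6 and 7.52 CPM in Babeni site 1 libraries, and 25.8, 45.9 and 182 CPM at Valcea. Babeni site 1 lay below all other libraries, and Babeni site 2 overlapped Valcea, where replicate 3 was far above the others. It fell at Babeni site 1 against Valcea, with -2.37 ± 0.50, and with -1.58 ± 0.34 without Valcea replicate 3. At Babeni site 2 against Valcea the difference was -0.86 ± 0.50, and -0.07 ± 0.34 without that library. Without Valcea replicate 1 it was -1.46 and passed.

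Locus_3629_Transcript_2_2_, annotated with cysteine synthase activity, is described as a myosin heavy chain. It was the only one of the 11 with higher means at both Babeni sites than at Valcea. It had 2.22, 2.00 and 2.02 CPM at Babeni site 2, 2.11, 2.48 and 2.36 CPM in Babeni site 1 libraries, and 1.19, 0.710 and 0.941 CPM at Valcea. All Babeni libraries lay above all Valcea libraries, but the differences of 0.85 ± 0.28 at Babeni site 2 and 0.97 ± 0.28 at Babeni site 1 against Valcea did not pass. They passed in 2 of 19 alternatives at Babeni site 2 and in 3 of 19 at Babeni site 1, edgeR among them in both. The other transcript of its locus differed by -0.08 ± 0.33 at Babeni site 2 and 0.17 ± 0.33 at Babeni site 1 against Valcea. The locus sum differed by 0.46 ± 0.24 and 0.66 ± 0.24 in the same order, and none of these passed.

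**Figure D2:**
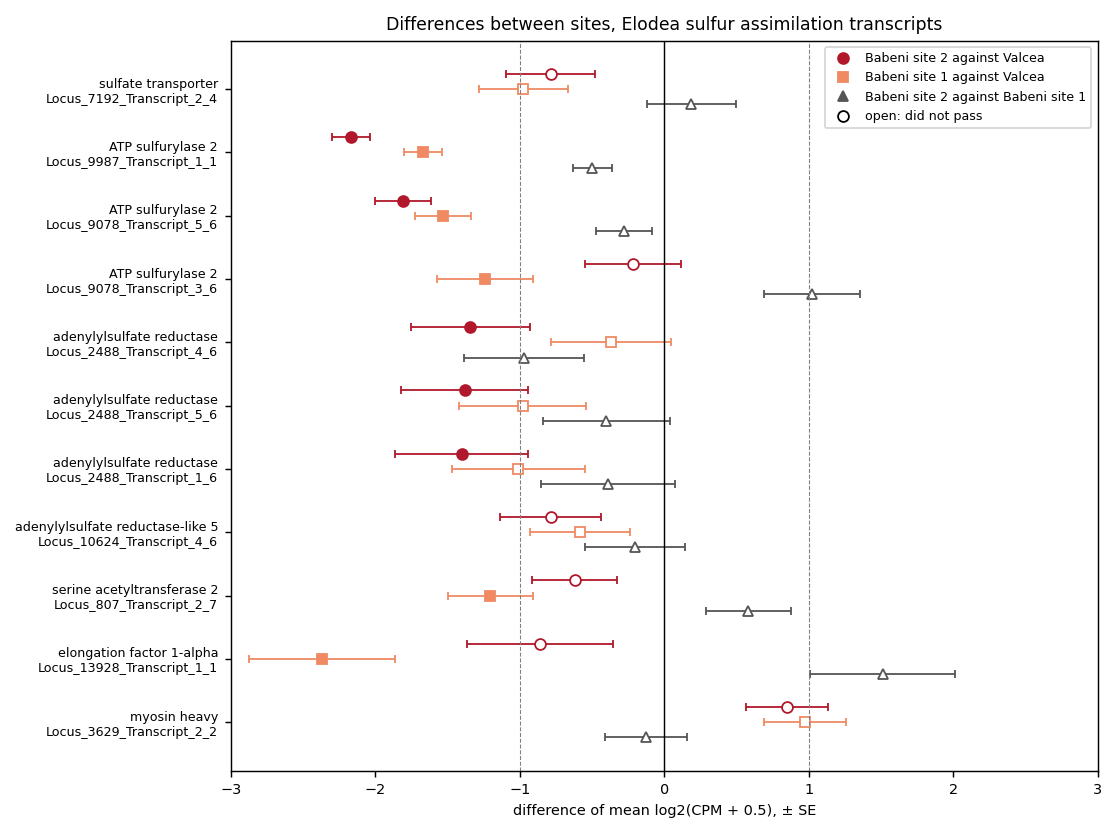
Differences of mean log2(CPM + 0.5) between sites for the 11 transcripts, with SE; filled symbols passed limma at an adjusted p under 0.05 and at least 2-fold, and dashed lines mark 2-fold. ATP sulfurylase Locus_9987 lies at -2.17 for Babeni site 2 and -1.67 for Babeni site 1 against Valcea, and no symbol of Babeni site 2 against Babeni site 1 is filled.

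Among the 9 transcripts found by description, all 9 had negative differences at both Babeni sites against Valcea. So had 2518 of 4685 described and 26597 of 56752 of all tested transcripts at Babeni site 2, and 2440 and 27005 at Babeni site 1. As the authors' calls in these contrasts chose the 9, nothing is read from this count. The median of the 9 was -1.34 at Babeni site 2, beside -0.41 over described and 0.05 over all tested transcripts, and -1.01 at Babeni site 1, beside -0.18 over described and 0.03 over all. At Babeni site 2, 8 of the 9 had all 3 libraries below those of Valcea, which 45.8% of described and 17.5% of all tested transcripts also had. At Babeni site 1 this held for 6 of the 9, beside 39.8% of described and 15.6% of all tested transcripts. The calls at the Babeni sites coincided for 2 transcripts, ATP sulfurylase Locus_9987_Transcript_1_1_ and Locus_9078_Transcript_5_6_. The adenylylsulfate reductase transcripts passed at Babeni site 2, and Locus_9078_Transcript_3_6_ and serine acetyltransferase passed at Babeni site 1.

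Between Babeni site 2 and Babeni site 1, none of the 11 passed limma, edgeR or DESeq2, beside 3.18% of all and 14.0% of described tested transcripts that limma called changed. At an unadjusted p under 0.05, 4 of the 11 passed by limma, beside 16.0% of all and 42.2% of described ones. Elongation factor Locus_13928_Transcript_1_1_, with a difference of 1.51 ± 0.50, passed without Valcea replicate 1 or 3 and in the fit of these sites alone. ATP sulfurylase Locus_9987_Transcript_1_1_ passed when no fold was required.

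**Figure D3:**
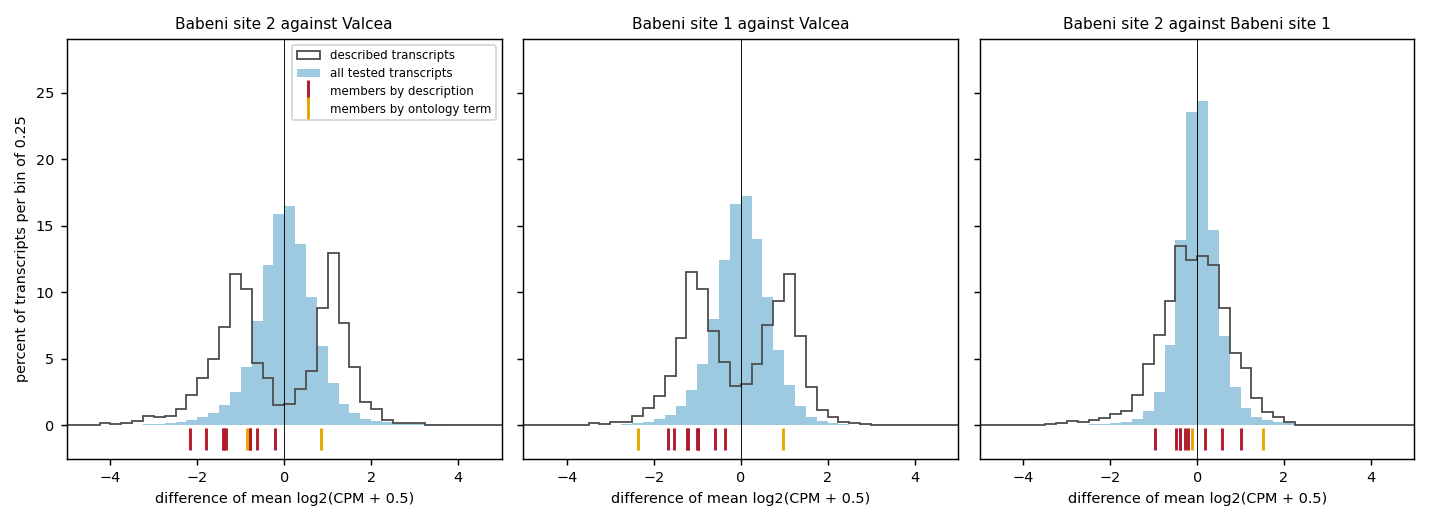
Distribution of log2 differences over all tested transcripts (filled) and described transcripts (outline), as percent of transcripts per bin of 0.25, for the 3 comparisons; marks under the axis are the 11 transcripts. Against Valcea the described transcripts, all taken from the authors' lists of changed transcripts, have 2 humps, and most marks lie in or beyond the left hump.

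In the authors' deposited tables, 7 of the 11 were listed at Babeni site 2 over Valcea, beside 15.0% of all transcripts, and 7 at Babeni site 1 over Valcea, beside 10.7%. None was listed in the authors' deposited table of Babeni site 1 over Babeni site 2, which holds 4.89% of all transcripts. To be among the 11 a transcript had to be listed in 1 of these tables. Closest to the authors' limit were the sulfate transporter Locus_7192_Transcript_2_4_, with a log2 fold change of -1.14 and an FDR of 0.0438 at Babeni site 1 in the authors' deposited table, and Locus_10624_Transcript_4_6_, with -1.06 and 0.0421 at Babeni site 2 in that deposited table. The deposited tables give no fold change or FDR for unlisted transcripts, so no values just outside the limit are given.

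The 8 loci held 10 other transcripts with values, of which the authors listed 1, Locus_807_Transcript_3_7_. Against Valcea, 10 of the 10 had negative differences at Babeni site 2, between -1.07 and -0.02. At Babeni site 1, 9 of the 10 did, and the 10 lay between -0.81 and 0.17. Of all 56752 tested transcripts, 26597 were negative at Babeni site 2 and 27005 at Babeni site 1. The 10 share loci, and so sequence, with the transcripts that the authors' calls chose, and some share a locus with each other. They are thus not independent, and nothing is read from these counts. Of the 10, only Locus_807_Transcript_3_7_ passed, at Babeni site 2, with -1.07 ± 0.27.

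Levels of different transcripts were compared per kilobase of assembled length. At Valcea, ATP sulfurylase Locus_9987_Transcript_1_1_ had 62.3 ± 3.60 CPM per kb over 1370 bases, and Locus_9078_Transcript_5_6_ had 7.50 ± 0.405 CPM per kb over 1913 bases. The adenylylsulfate reductase transcripts had 0.589 to 0.795 CPM per kb at Valcea. There the sulfate transporter transcript had 2.14 ± 0.301 and serine acetyltransferase Locus_807_Transcript_2_7_ had 2.42 ± 0.515 CPM per kb, and these 2 do not differ beyond their spread. These are single transcripts, and Locus_807_Transcript_2_7_ made up 4.08% of its locus at Valcea. The locus sums there were 90.9 CPM for Locus_807 and 5.38 CPM for transporter Locus_7192, not divided by length. Locus_9987_Transcript_1_1_ was also the highest of the 9 found by description at Babeni site 2, with 13.6 ± 0.875 CPM per kb, and at Babeni site 1, with 19.3 ± 1.83 CPM per kb.

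The described transcripts whose pattern over the 9 libraries was most like that of Locus_9987_Transcript_1_1_ were found among 1835 transcripts by the root mean square difference of centred log2 values. The closest, Locus_695_Transcript_16_19_, described as serine-glyoxylate aminotransferase-like, differed by 0.10 and averaged 86.0 CPM at Babeni site 2, 105 CPM at Babeni site 1 and 347 CPM at Valcea. The next were a rubredoxin family protein, Locus_12552_Transcript_1_2_, which differed by 0.11, and the uncharacterized Locus_9608_Transcript_2_4_, which differed by 0.12. For elongation factor Locus_13928_Transcript_1_1_ the 3 closest were described as ribosomal proteins L7a-like, L10-like and S18, with differences of 0.37 to 0.52. At Valcea these averaged 9.64 ± 8.02, 9.59 ± 7.16 and 15.1 ± 10.4 CPM in the same order (SD, n = 3 each). The spread within Valcea was thus wide, as for the elongation factor, and it enters the likeness. Likeness without Valcea replicate 3 was not tested.

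Described transcripts of processes around the route were counted by list, each read beside the described background, in which 32.1% fell and 27.0% rose at Babeni site 2, and 24.8% fell and 20.7% rose when Babeni site 1 was set against Valcea. No described transcript matched glutathione or phytochelatin synthesis. Serine supply, the source of the serine that serine acetyltransferase uses, had 7 transcripts of 5 loci, of which 3 fell and the other 4 rose in the comparison of Babeni site 2 with Valcea. At Babeni site 1 none passed limma, edgeR or DESeq2, and 4 had an unadjusted p under 0.05. Serine hydroxymethyltransferase Locus_59_Transcript_17_18_, which interconverts glycine and serine in photorespiration and the folate cycle, averaged 176 ± 6.83 CPM at Babeni site 2, 272 ± 19.3 CPM at Babeni site 1 and 481 ± 68.2 CPM at Valcea. It fell at Babeni site 2 against Valcea, with -1.44 ± 0.12, as did Locus_59_Transcript_16_18_ of the same locus, with -1.05 ± 0.16. The Valcea libraries had 53.6, 61.3 and 82.4 CPM of Locus_59_Transcript_16_18_, with replicate 3 highest, and its call without that library is not given.

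The list for sulfation, sulfite and sulfolipids held 6 transcripts. They were described as rhodanese, thiosulfate sulfurtransferase, sulfite oxidase or adenylyl-sulfate kinase, and no description named a sulfolipid enzyme or a sulfotransferase. Of these 6, 2 rose and none fell at Babeni site 2 against Valcea by limma, where 5 had an unadjusted p under 0.05. At Babeni site 1 against Valcea 1 rose and 1 fell. Sulfite oxidase-like Locus_5378_Transcript_1_1_, which turns sulfite back into sulfate in peroxisomes, had 76.7, 83.0 and 85.3 CPM at Babeni site 2, 58.4, 73.3 and 65.1 CPM in Babeni site 1 libraries, and 29.4, 30.0 and 32.7 CPM at Valcea. It rose at both, with 1.40 ± 0.13 at Babeni site 2 and 1.08 ± 0.13 at Babeni site 1 against Valcea. All its Babeni libraries lay above all Valcea libraries, opposite in direction to ATP sulfurylase. Thiosulfate sulfurtransferase 18-like Locus_5011_Transcript_2_4_, of an enzyme family that moves sulfane sulfur, fell at Babeni site 1 against Valcea, with -1.42 ± 0.32. It had 15 reads at Babeni site 1 and 45 at Valcea. Its Valcea libraries had 2.78, 3.08 and 4.70 CPM, with replicate 3 highest, and the call without that library is not given.

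Of 11 transcripts of glutathione use, 1 fell and 1 rose in the comparison of Babeni site 2 with Valcea, and 3 fell and 3 rose at Babeni site 1. The glutathione S-transferases conjugate glutathione to other compounds, and the 2 most abundant described ones went in opposite directions at Babeni site 1. Locus_464_Transcript_3_3_ averaged 60.2 ± 7.55 CPM at Babeni site 2, 101 ± 7.94 CPM at Babeni site 1 and 42.6 ± 14.8 CPM at Valcea, and rose at Babeni site 1 with 1.30 ± 0.20. Its Valcea libraries had 55.2, 46.1 and 26.3 CPM, with replicate 3 lowest, and the call without that library is not given. Locus_3805_Transcript_3_3_ averaged 25.6 ± 2.83 CPM at Babeni site 2, 18.8 ± 1.87 CPM at Babeni site 1 and 45.9 ± 8.70 CPM at Valcea, and fell at Babeni site 1 with -1.26 ± 0.16.

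The list for cysteine use and metal binding held 5 transcripts, described as cysteine desulfurase, L-cysteine desulfhydrase or iron-sulfur cluster assembly protein. Of these, 1 fell at each Babeni site against Valcea. Iron-sulfur cluster assembly Locus_272_Transcript_8_11_ averaged 19.0 ± 3.82 CPM at Babeni site 2, 29.2 ± 3.46 CPM at Babeni site 1 and 41.2 ± 7.16 CPM at Valcea, and fell at Babeni site 2 against Valcea with -1.10 ± 0.17. Cysteine desulfurase Locus_233_Transcript_6_9_, which takes sulfur from cysteine for such clusters, averaged 4.04 ± 0.518 CPM at Babeni site 2, 3.29 ± 0.440 CPM at Babeni site 1 and 6.57 ± 1.68 CPM at Valcea, with no difference past the threshold.

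The methionine list held 2 transcripts of 1 locus, both S-adenosylmethionine synthase 1, the enzyme that makes the cell's main methyl donor. Locus_4037_Transcript_3_12_ averaged 29.6 ± 3.16 CPM at Babeni site 2, 66.4 ± 11.1 CPM at Babeni site 1 and 37.3 ± 6.33 CPM at Valcea. It fell at Babeni site 2 against Babeni site 1, with -1.14 ± 0.16, as did Locus_4037_Transcript_4_12_, with -1.05 ± 0.15. Against Valcea neither passed by limma or edgeR, while DESeq2 called 1 of the 2 at Babeni site 1, and both had an unadjusted p under 0.05 there by limma. The list of sulfur starvation responses held 2 transcripts. In Arabidopsis, SLIM1 of the ethylene-insensitive 3-like family of transcription factors controls the response to low sulfur. Locus_2440_Transcript_2_6_ is described as ethylene-insensitive 3-like 1, a member of that family, and its description does not name SLIM1. It averaged 8.59 ± 0.627 CPM at Babeni site 2, 6.70 ± 0.388 CPM at Babeni site 1 and 13.8 ± 1.67 CPM at Valcea. Its log2 differences of -0.65 ± 0.17 at Babeni site 2 and -0.99 ± 0.17 at Babeni site 1 against Valcea did not pass by limma, while edgeR and DESeq2 each called 1 of the 2 transcripts of this list at Babeni site 1. The other, Locus_14218_Transcript_3_3_ of the male sterility 5 family, fell at Babeni site 2 against Babeni site 1, with -1.21 ± 0.25.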

How the data were processed

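Per the labels' protocols, RNA was extracted with TRI-Reagent and libraries were made with a TruSeq stranded mRNA kit. Tools named in the submitters' processing notes, with no roles, are edgeR 3.4.2, HTSeq 0.5.3p9, TopHat2 2.0.11 and BWA 0.7.10. The reference is not given in the sources used here. Per the file name, the deposited Elodea table holds CPM from edgeR, a signal whose sum differs between libraries. The plan had assumed CPM with 1 common sum, and its test was kept. For each pair of sites the authors deposited log2 fold changes and an FDR (adjusted p-value) for listed transcripts only, per the file headers.

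All values came out as whole reads (100% within 0.01 of a whole number), which gave reads and depths. The test was limma 3.58.1 (R 4.3.3) with a mean trend on log2(CPM + 0.5) of transcripts that reached 1 CPM in 3 or more of the 9 libraries, with all 3 sites in 1 fit. Of 58110 transcripts 56752 were tested, and all 11 of the route passed this filter. The fit was tested on simulated data. Alternatives were other pseudocounts, filters, scalings and variance models, a replicate block, each library left out, locus sums, 2-site fits, and the recovered reads in DESeq2 1.42.0 and edgeR 4.0.16. The transcripts and lists were chosen with earlier results of these data known. Named are all 11, up to 2 per list with the highest mean CPM, and the 3 described transcripts most like each of the 11 with a mean of at least 20 CPM. Other transcripts of their loci were named after their values were seen. Counting error limits transcripts of few reads.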

Additional observations from a re-analysis of the deposited data

How the results depend on the processing

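Of 632 differences of the 11 transcripts under alternatives, 596 moved by no more than the spread, 36 moved further and none that had passed changed sign. Other filters, limma without a trend, the replicate block, 2-site fits and leaving out a library of the third site cannot move a difference. Such cases are counted among the 596, so that count overstates stability. Transcripts of the route changed against Valcea numbered 3 for Babeni site 1 and 2 for Babeni site 2 under a pseudocount of 2, 3 and 2 with a minimum of 5 CPM, which left 3 of the 11 to test, 3 and 3 with sums per locus, and 3 and 3 with DESeq2. Leaving out 1 library gave 4 to 6 at Babeni site 1. At Babeni site 2 it gave 2 to 5: 2 without Babeni site 2 replicate 1 or 2 and 3 without Babeni site 2 replicate 3 or Valcea replicate 2. Between the Babeni sites 1 was called with adjusted p alone, an alternative chosen after seeing the data, and 1 in the fit of 2 sites, and 0 to 1 with 1 library left out. The other alternatives stayed within 1.5 times. Over all transcripts, 5151 changed at Babeni site 1, 6861 at Babeni site 2 and 1805 between the Babeni sites. In the same order a pseudocount of 2 gave 2069, 3313 and 1054, and 5 CPM gave 2436, 3308 and 1104, with fewer tested. Sums per locus gave 3359 for the Babeni site 1 comparison and 4543 for that of Babeni site 2, and DESeq2 gave 3326 at Babeni site 1. With 1 library left out the ranges were 4080 to 6765, 5479 to 8397 and 1250 to 2116. The causes of these shifts were not tested, beyond the fewer features of the stricter filter and the sums. Replicate numbers do not pair the libraries: 9 same-numbered pairs had correlations of -0.16 to 0.06. With the replicate block 5, 4 and 0 of the 11 changed, and 4855, 6583 and 1670 of all transcripts. Depth limits the adenylylsulfate reductase transcripts most, at 0 to 15 reads per library.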

Other observations

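Further described transcripts of sulfur metabolism lay outside the lists and were chosen after their descriptions and values were seen. Against Valcea, 27.0% of described tested transcripts rose at Babeni site 2 and 20.7% at Babeni site 1. Given that choice, nothing is read from how many of them rose. The sulfite exporter family transcript Locus_7819_Transcript_3_3_ averaged 5.33 ± 0.651 CPM at Babeni site 2, 4.46 ± 0.967 CPM at Babeni site 1 and 1.86 ± 0.534 CPM at Valcea (SD, n = 3 each). It rose by limma at Babeni site 2 against Valcea, with a log2 difference of 1.32 ± 0.26, and at Babeni site 1, with 1.08 ± 0.26. Another of that family, Locus_9047_Transcript_5_6_, also rose at both, with 1.25 ± 0.35 at Babeni site 2 and 1.49 ± 0.35 at Babeni site 1, from 4 reads in all at Valcea. It reached 1 CPM in Babeni libraries only and so was tested only because it was higher there. One more, Locus_1553_Transcript_14_18_, rose at Babeni site 2, with 1.09 ± 0.32.

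2-aminoethanethiol dioxygenase-like Locus_18317_Transcript_1_1_, of the family of plant cysteine oxidases, had 12.9, 15.0 and 11.4 CPM at Babeni site 2, 5.36, 5.15 and 7.09 CPM in Babeni site 1 libraries, and 3.97, 4.50 and 3.57 CPM at Valcea. It rose at Babeni site 2 against Valcea, with 1.59 ± 0.20, and against Babeni site 1, with 1.10 ± 0.20. Locus_3565_Transcript_7_8_, described alike, had 54 reads at Babeni site 2, 7 at Babeni site 1 and 3 at Valcea, and rose at Babeni site 2 against Valcea and against Babeni site 1 by limma. It reached 1 CPM only in the Babeni site 2 libraries and so was tested only because it was higher there. Persulfide dioxygenase Locus_12404_Transcript_3_4_, a mitochondrial enzyme, rose at Babeni site 1 against Valcea, with 1.33 ± 0.40 from 29 reads at Babeni site 1 and 5 at Valcea. Outside Babeni site 1 it reached 1 CPM only in Babeni site 2 replicate 1 and Valcea replicate 1. It was thus tested only through Babeni site 1, where it was highest.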
